A study of Homo sapiens with 16 samples.

Results

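The calcitonin family signals through small peptides and a shared receptor. CALCB, CALCA and ADM, with CALCRL, RAMP1, RAMP2 and RAMP3, were taken as its members, and every Affymetrix probe set that the platform annotation assigns to exactly 1 of these 7 symbols was used. These genes are 7 of the 11963 with such a probe set on the U133A array, and their probe sets were 11 of the 19071 single-gene probe sets there and 8 of the 10961 on the older U95 array. On U133A, CALCA had 4 probe sets, CALCRL 2 and each of the other genes 1. The family was selected on the measured rise of CALCB and of ADM against vehicle on the U133A arrays, so those differences are given as a description, and no test of them is read as support. The other 5 genes came in by family.

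The arrays measured messenger RNA in OVCAR3, an established human ovarian carcinoma line that was grown in medium with fetal bovine serum and bovine insulin. Cells received 1,25-dihydroxyvitamin D3, the hormonal form of vitamin D, for 8, 24 or 72 h at a labelled dose of 0.1 pM, or ethanol vehicle, which the labels call 0 h. Hormone was added at staggered times ahead of a common harvest, and every culture had the same ethanol load throughout. Each of the 4 groups had 3 U133A arrays from independent experiments, whose cells had been checked for a GADD45 response on Northern blots, and an earlier set of 4 U95 arrays held 1 sample for each time.

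Calcitonin gene-related peptide has 2 forms in humans, an alpha form from CALCA, which also encodes calcitonin by alternative splicing, and a beta form from CALCB. ADM encodes adrenomedullin, a related vasoactive peptide that hypoxia induces in many cells. CALCRL is a receptor with a bundle of membrane helices that reaches the cell surface with a receptor activity-modifying protein. With RAMP1 it binds calcitonin gene-related peptide, and with RAMP2 or RAMP3 it binds adrenomedullin. The receptor couples to Gs and so to cyclic AMP.

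The promoter of ADM, the responding ligand gene with an entry in the RefSeq promoter table, is shown beside that of CALCA, the alpha-form gene next to CALCB, to display what lies close to their start sites. The windows run from 250 bases before to 50 after the start of the gene on GRCh38.p14, at chr11:10304823-10305122 on the plus strand for ADM and at chr11:14972302-14972601 on the minus strand for CALCA. Capitals mark matches to the motifs searched.
ADM: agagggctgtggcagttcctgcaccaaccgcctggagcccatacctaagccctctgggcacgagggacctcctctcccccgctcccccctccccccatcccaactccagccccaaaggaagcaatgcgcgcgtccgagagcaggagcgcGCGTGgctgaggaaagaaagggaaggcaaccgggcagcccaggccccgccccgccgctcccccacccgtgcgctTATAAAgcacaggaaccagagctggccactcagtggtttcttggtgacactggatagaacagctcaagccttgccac
CALCA: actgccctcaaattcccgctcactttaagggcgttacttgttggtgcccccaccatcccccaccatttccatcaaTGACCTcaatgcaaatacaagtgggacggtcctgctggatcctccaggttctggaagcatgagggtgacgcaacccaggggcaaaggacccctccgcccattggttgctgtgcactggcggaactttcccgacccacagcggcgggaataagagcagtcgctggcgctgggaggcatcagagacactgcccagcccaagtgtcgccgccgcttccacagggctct

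Both strands were searched for the 6-base vitamin D receptor motif AGGTCA and for its variants, which were AGTTCA with 10.4% of all windows, GGGTCA with 14.1% and GGTTCA with 8.62%, against 13.8% for the first. Direct repeats of any of these with 3 bases between were also searched, as were the hypoxia core, written ACGTG or else GCGTG, and the TATA box TATAAA. In the ADM window a hypoxia core of the form GCGTG was found at bases -101 to -97 from the start of the gene and the TATA box at bases -27 to -22, and none of the other motifs. In the CALCA window 1 receptor motif was found, AGGTCA on the opposite strand at bases -175 to -170. Among all 35116 windows of the table, 38.6% hold at least 1 receptor motif, 0.074% a direct repeat, 48.4% a hypoxia core (21.4% the form ACGTG and 36.5% the form GCGTG) and 11.5% the TATA box. The windows of CALCRL and RAMP3 held 1 receptor motif each, GGGTCA, and no repeat. That of RAMP3 also held 2 cores of the form GCGTG, 1 of which overlaps the receptor motif. CALCB, RAMP1 and RAMP2 have no entry in the table used here. A match is a run of letters and not a site of binding.

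The cells carried epithelial markers. All 8 ovarian carcinoma markers (KRT7, KRT8, KRT18, EPCAM, CDH1, WT1, PAX8 and MUC16) lay above the filter on low values, which left out genes whose mean over all 12 arrays was under the 40th percentile, a signal of about 169. Against vehicle, WT1 was higher at all times, CDH1 at 24 and 72 h and KRT7 at 72 h, while PAX8 was lower at 24 h and KRT18 at 24 and 72 h (limma, adjusted p threshold 0.05). KRT18 no longer passed at 72 h under 7 of 21 alternatives (adjusted p up to 0.109), KRT7 at 72 h when probe sets were averaged (0.139) and PAX8 at 24 h with median centring (0.0806). The PAX8 probe set tested, 1 of 8, had log2 changes of -0.17, -0.37 and -0.19 at 8, 24 and 72 h. The other PAX8 probe sets were lower still, with -0.19 to -0.51, -0.46 to -0.72 and -0.38 to -0.69. Of 7 endothelial markers 0 lay above it, of 8 neuroendocrine and sensory neuron markers 1 (ENO2), of 7 fibroblast markers 3 and of 5 leukocyte markers 2. None of these above the filter passed against vehicle at any time (lowest limma adjusted p = 0.0923, ENO2 at 72 h). The markers under it were not tested. Further probe sets of the fibroblast marker COL1A1 had log2 changes of 1.65, 0.23 and -0.33 at 72 h. That of the leukocyte marker LAPTM5 had 1.44, 1.33 and 0.81 at 8, 24 and 72 h. The summed signal of the 8 neuroendocrine and neuron markers was 664 to 804 in vehicle, 613 to 947 at 8 h, 489 to 729 at 24 h and 634 to 980 at 72 h. The summed signal of 5 leukocyte markers was lower on every 24 h array, at 470.3 to 511, than in vehicle, at 554.5 to 748. The other marker sums overlapped vehicle at each time, and the part of any of them in the results was not tested. The response of the cells to the hormone was large, since CYP24A1, the enzyme that breaks the hormone down, reached 7430 ± 1407 at 72 h, against 129 ± 103 in vehicle (SD, 3 arrays each). GADD45A had log2 changes of 1.49, 1.91 and 2.02 at 8, 24 and 72 h. VDR, the receptor of the hormone, had 0.21, 0.19 and -0.28 and did not pass (limma adjusted p = 0.984, 0.625 and 0.302). That is the brightest of its 4 probe sets, which disagreed. The others had 1.06, 0.95 and 0.87, then -0.09, 0.19 and -0.17, and last -0.97, -1.11 and -0.70. The U133A arrays had medians from 168 to 196, and correlated with each other at 0.958 to 0.976 on the log2 scale. The lowest median belonged to 72 h replicate 1.

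CALCB was higher than in vehicle at every time, and its level was highest at 72 h. Its signals were 91.8, 92.5 and 96.5 in vehicle, 324, 245 and 329 at 8 h, 484, 303 and 548 at 24 h, and 639, 502 and 708 at 72 h. Every treated array lay above every vehicle array, and the vehicle arrays lay close together. The means were 93.6 ± 2.58 in vehicle, 299 ± 46.9 at 8 h, 445 ± 127 at 24 h and 616 ± 105 at 72 h (SD, n = 3 each). With 15.8 added to each signal before log2 transformation, the level under which 10% of U133A values lie, the log2 change was 1.51 at 8 h (SE 0.20), 2.03 at 24 h (SE 0.20) and 2.52 at 72 h (SE 0.20), or 2.86-, 4.09- and 5.72-fold. Replicate 2 was the lowest array in each of the 3 treated groups, and not in vehicle.

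The order of the CALCB levels was vehicle, 8 h, 24 h and 72 h, and the arrays of neighbouring treated times overlapped. The 24 h arrays overlapped those at 8 h (log2 difference 0.52, 95% interval 0.09 to 0.95), and the 72 h arrays overlapped those at 24 h (0.48, interval 0.05 to 0.92). Both intervals lie above 0 but are not adjusted for the number of genes. Neither difference passed limma's test over all genes (adjusted p = 0.487 and 0.377), which is no independent test for a gene chosen on its values. The later time had the higher signal within each of the 3 replicate numbers, but no label states that these arrays are paired. The 3 arrays at 72 h all lay above the 3 at 8 h, as for 8.72% of genes tested, with a log2 difference of 1.00 (interval 0.57 to 1.43).

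**Figure D1:**
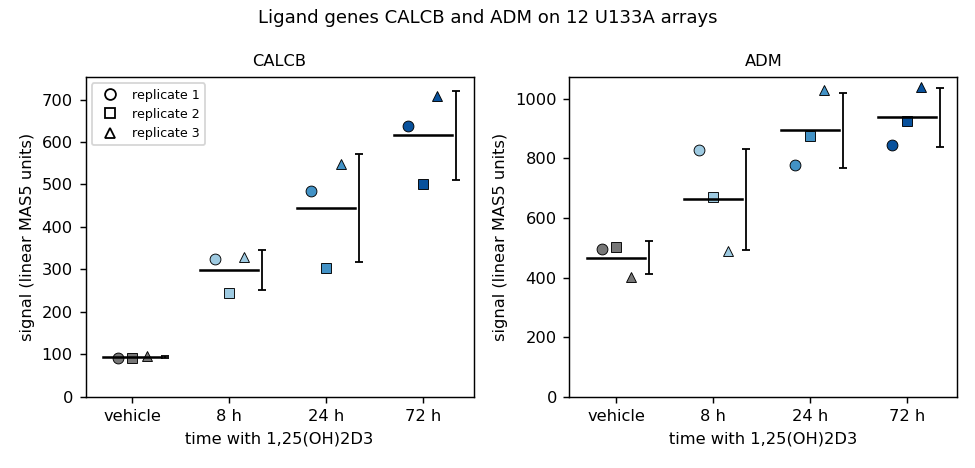
Signals of CALCB (left) and ADM (right) on the 12 U133A arrays, in linear units, by time with 1,25(OH)2D3. Each symbol is 1 array, with its shape giving the replicate, the horizontal line is the mean and the vertical bar the SD of 3 arrays. CALCB averaged 616 at 72 h and 93.6 in vehicle, and at 8 h the ADM arrays still overlapped the vehicle range.

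ADM was higher than in vehicle at 24 and 72 h, by less than CALCB. Its signals were 495, 502 and 402 in vehicle, 829, 669 and 488 at 8 h, 778, 873 and 1029 at 24 h, and 845, 926 and 1040 at 72 h. At 8 h 1 array, replicate 3, lay inside the vehicle range, while at 24 and 72 h all arrays lay above it. The means were 467 ± 55.9 in vehicle, 662 ± 170.3 at 8 h, 893 ± 127 at 24 h and 937 ± 97.8 at 72 h (SD, n = 3 each). The log2 change was 0.47 at 8 h (SE 0.17), 0.91 at 24 h (SE 0.17) and 0.98 at 72 h (SE 0.17), or 1.38-, 1.88- and 1.98-fold. Without 8 h replicate 1 or 3 the 8 h value was 0.29 or 0.66.

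The ADM levels at 72 and 24 h differed by less than their spread (log2 difference 0.07, interval -0.29 to 0.43). The 72 h signal was higher in 3 of 3 replicate numbers, which no label states to be paired. The arrays at 24 h overlapped those at 8 h (0.45, interval 0.09 to 0.81). Those at 72 h lay above those at 8 h (0.52, interval 0.16 to 0.88), as for 8.72% of genes tested. The latter difference did not pass limma's test over all genes (adjusted p = 0.138), which is no independent test for a gene chosen on its values. The order of the ADM group means was thus vehicle, 8 h, 24 h and 72 h.

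CALCB, ADM and RAMP3 lay above the filter and were fitted with all 7178 genes above it, and the other 4 genes lay below it. The vehicle signals of CALCB lay under the filter's level, so that it passed only through its treated arrays. Over all genes tested, 0.711% were called higher at 8 h, 2.45% at 24 h and 3.86% at 72 h at an adjusted p threshold of 0.05, and 0.0557%, 1.62% and 2.98% were called lower. No call is counted for CALCB and ADM, since these contrasts chose the family. All 3 treated arrays lay above all 3 vehicle arrays for 6.51%, 9.32% and 11.7% of genes at 8, 24 and 72 h, and all below for 6.95%, 11.2% and 12.7%. CALCB was so placed above vehicle at 3 times and ADM at 24 and 72 h, from which nothing is read. The comparisons at the 3 times share their vehicle arrays.

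In 3 of the 4 CALCA probe sets the treated arrays overlapped vehicle at every time. The probe set with the highest mean had signals of 93.7, 133.2 and 141 in vehicle, 67.2, 147 and 158 at 8 h, 64.9, 84.3 and 105 at 24 h, and 98.6, 133.1 and 128 at 72 h. No time stood apart in these values, and the log2 change was -0.04 at 8 h (95% interval -0.71 to 0.62), -0.47 at 24 h (interval -1.14 to 0.20) and -0.02 at 72 h (interval -0.69 to 0.65). Replicate 1 was the lowest of the 3 in all 4 groups. The next brightest ranged from 22.8, in 72 h replicate 1, to 137 over the 12 arrays, with log2 changes of 0.08, -0.13 and -0.45 and intervals across 0, and the dimmest ranged from 3.36 to 15.3.

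The remaining CALCA probe set, whose name ends in x_at, had low signals that were higher at 72 h, with 27.1, 42.4 and 33.6 at 72 h, against 13.1, 19.7 and 25.4 in vehicle. The arrays of these groups did not overlap, and the log2 change was 0.52 (interval 0.05 to 0.98). This change did not pass in the fit to all 19071 single-gene probe sets (limma adjusted p = 0.3). Every array at 72 h also lay above every vehicle array for 8.1% of all 19071 single-gene probe sets. In the family 3 of 11 did so, and the other two are those of CALCB and ADM, on which it was selected. That suffix is the one Affymetrix gives to probe sets that may also bind similar transcripts.

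CALCRL, the receptor itself, was near the low end of the scale in all groups. Its brighter probe set had 60.4, 9.27 and 46.2 in vehicle, 83.1, 31.7 and 49.8 at 8 h, 86.6, 9.93 and 13.0 at 24 h, and 62.1, 7.28 and 55.3 at 72 h. The highest array was replicate 1 and the lowest replicate 2 in each of the 4 groups. The log2 change was 0.46, -0.21 and 0.04 at 8, 24 and 72 h, with intervals of -0.84 to 1.76, -1.51 to 1.09 and -1.26 to 1.34. The other probe set ranged from 14.8 to 37.8 over the 12 arrays and had log2 changes of -0.11, -0.25 and -0.30, all with intervals across 0. Fewer cells with a transcript and less of it per cell cannot be told apart in such bulk samples.

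RAMP1, the partner that makes the receptor bind calcitonin gene-related peptide, had signals of 119, 93.6 and 174 in vehicle, 172, 171 and 199 at 8 h, 206, 257 and 125 at 24 h, and 29.7, 245 and 168 at 72 h. The groups overlapped at every time. The log2 change was 0.48 at 8 h (interval -0.62 to 1.57), 0.54 at 24 h (interval -0.55 to 1.63) and -0.12 at 72 h (interval -1.21 to 0.97). The 72 h value turned on single arrays, since it was 0.64 without 72 h replicate 1, the array at 29.7, and -0.62 without 72 h replicate 2. Replicate 1 also had the lowest median signal of the 12. This gene lay just under the filter, which left it out of the test across genes.

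RAMP2, a partner for adrenomedullin binding, had low signals of 13.3, 14.0 and 27.7 in vehicle and 47.4, 19.4 and 17.4 at 72 h, with 15.8 to 27.4 at 8 h and 17.3 to 20.6 at 24 h. The groups overlapped at each time, and the log2 changes were 0.08, 0.07 and 0.32 at 8, 24 and 72 h (intervals -0.50 to 0.66, -0.51 to 0.65 and -0.25 to 0.90). At 72 h replicate 1 alone was above the vehicle range, and without it the value was 0.03.

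RAMP3, the other partner for adrenomedullin, had signals of 178, 197 and 276 in vehicle, 219, 177 and 159 at 8 h, 200.3, 197 and 210 at 24 h, and 134, 271 and 228 at 72 h. The means were 217 ± 51.9 in vehicle, 185 ± 30.9 at 8 h, 202 ± 6.49 at 24 h and 211 ± 70.0 at 72 h (SD, n = 3 each). All groups overlapped, and RAMP3 did not pass the limma test, with log2 changes of -0.20, -0.07 and -0.07 (adjusted p = 0.999, 0.938 and 0.923) at 8, 24 and 72 h. The 95% intervals, -0.71 to 0.30, -0.57 to 0.43 and -0.57 to 0.44, bound the change at 0.61- to 1.23-fold, 0.67- to 1.35-fold and 0.67- to 1.35-fold of vehicle. RAMP3 also did not pass for any difference between treated times (lowest adjusted p = 0.874), where 0.641% of genes were called in either direction for 24 against 8 h, 0.153% for 72 against 24 h and 2.52% for 72 against 8 h.

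**Figure D2:**
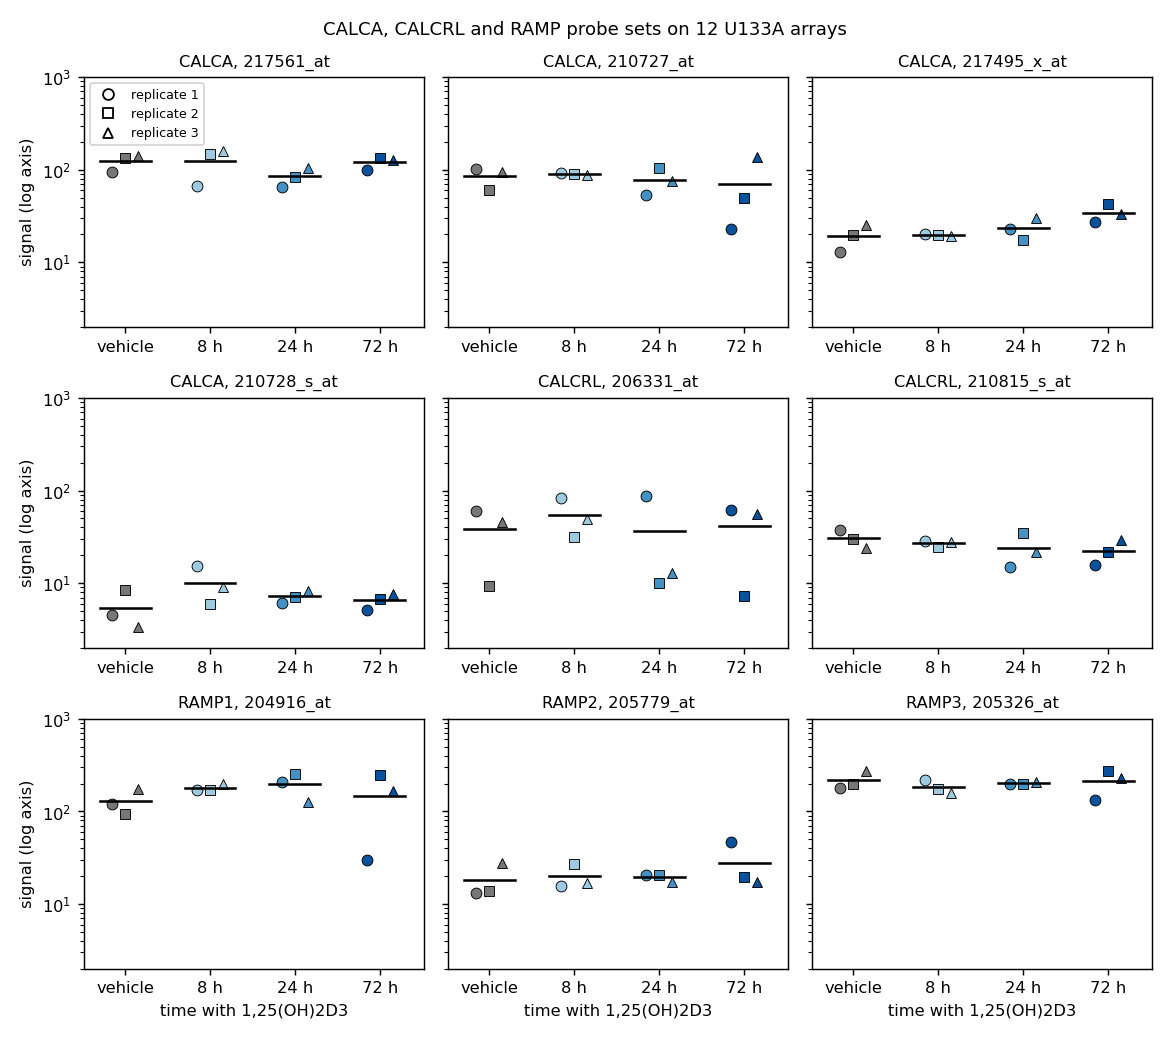
Signals of the 9 probe sets of CALCA, CALCRL, RAMP1, RAMP2 and RAMP3 on the 12 U133A arrays, on a log axis, by time with 1,25(OH)2D3. Each symbol is 1 array, with its shape giving the replicate, and the line is the mean of 3. Treated and vehicle arrays overlap in all panels at all times, except at 72 h for the CALCA probe set ending in x_at.

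**Figure D3:**
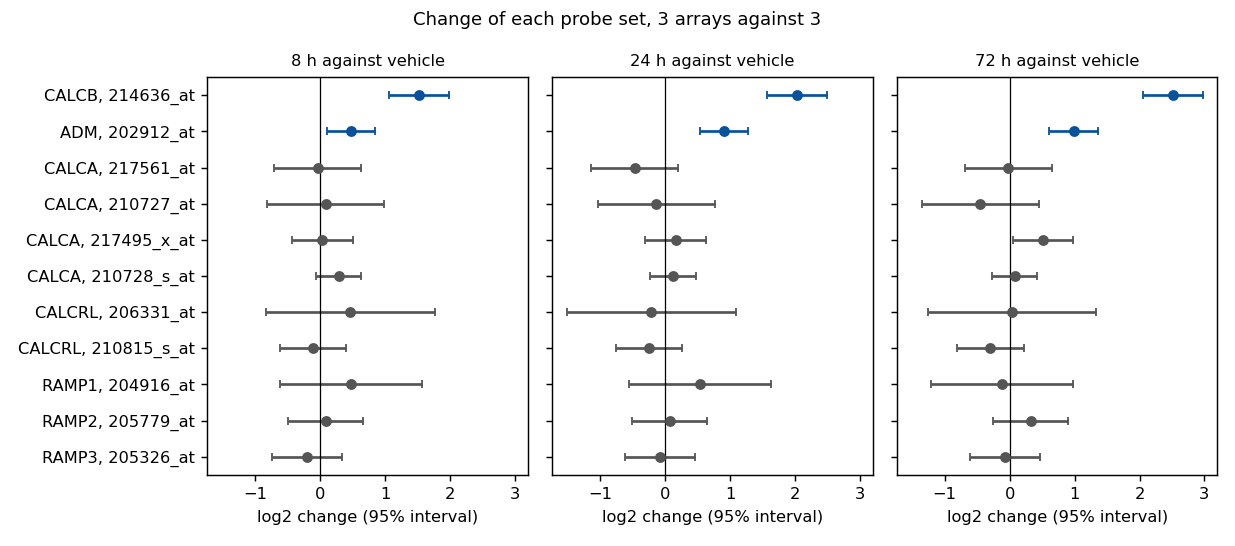
The log2 change of each of the 11 probe sets at 8, 24 and 72 h against vehicle, with 95% intervals from a fit to all 19071 single-gene probe sets. CALCB (1.51, 2.03 and 2.52) and ADM (0.47, 0.91 and 0.98) are in blue, and the wide intervals of the brighter CALCRL probe set and RAMP1 all cross 0.

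The U95 arrays give 1 value per time, with no replicate check. CALCB had 18.1 in vehicle, 74.2 at 8 h, 130 at 24 h and 159 at 72 h, in the same order as on U133A, with log2 ratios to vehicle of 1.46, 2.17 and 2.44. The vehicle signal was low, so the ratio depends on the 13.9 added to each U95 value, and at 72 h it was 3.07 with 1 added and 1.54 with 55.5 added. ADM had 382 in vehicle, 419 at 8 h, 669 at 24 h and 911 at 72 h, with log2 ratios of 0.13, 0.79 and 1.23.

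On U95 the RAMP3 signal was lower in all 3 treated samples than in vehicle. The U133A means were also below vehicle at each time, by less and with overlapping arrays. It was 1021 in vehicle, 797 at 8 h, 674 at 24 h and 709 at 72 h, with log2 ratios of -0.35, -0.59 and -0.52. Both CALCA probe sets were also lower in every treated sample, with 48.0 in vehicle against 29.1 to 30.2 in treated samples for the brighter of them. CALCRL had 27.3 in vehicle and 5.11 at 72 h, RAMP1 between 7.56 and 12.6, and RAMP2 between 38.6 and 47.1.

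Counted by a 2-fold threshold on U95, 1 of the 7 genes (CALCB) was higher at 8 h and at 24 h, and 2 (CALCB and ADM) were higher and 1 (CALCRL) lower at 72 h. Of the 8228 genes on this array type, 2.54%, 2.46% and 2.94% were as much higher at 8, 24 and 72 h, and 3.03%, 4.33% and 5.87% as much lower. The ratio of CALCRL rests on a signal near the low end, and without replicates none of these differences could be tested.

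**Figure D4:**
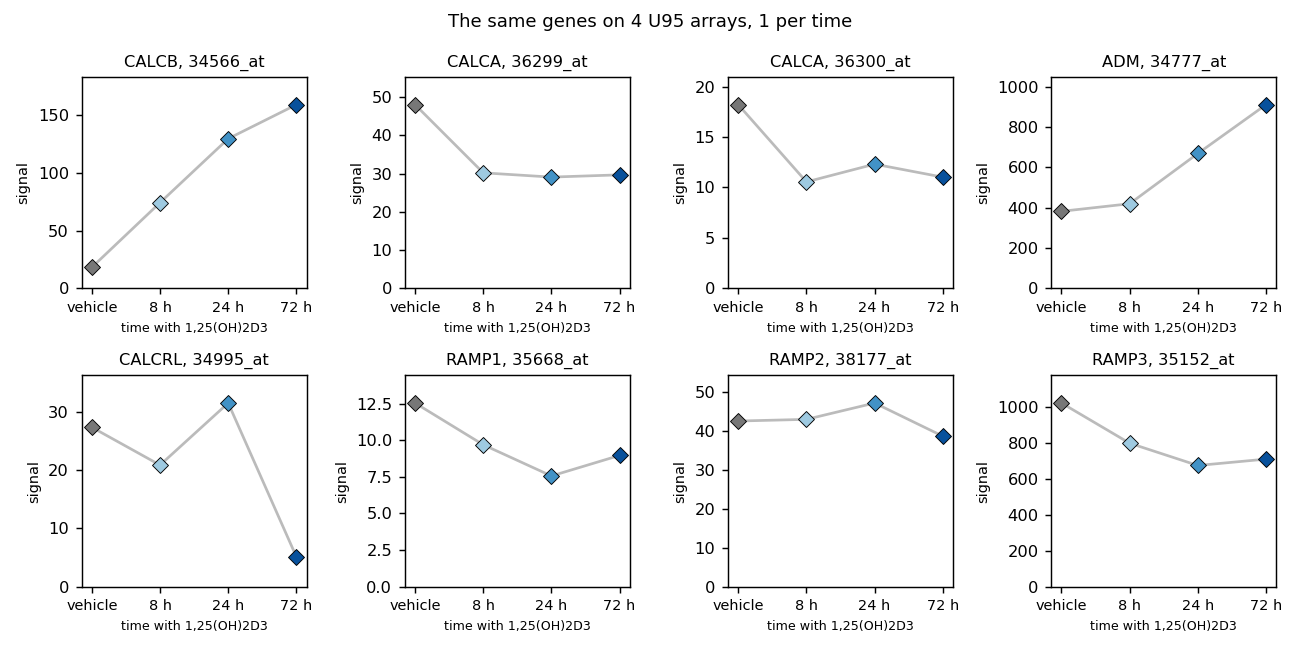
Signals of the 8 probe sets of the family on the 4 U95 arrays, 1 per time, on linear axes that start at 0 and differ between panels. The line joins the times and there are no replicates. CALCB and ADM are highest at 72 h, and RAMP3 is highest in vehicle.

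The steps around the receptor were followed through 5 lists of genes, of which 50 of 82 genes lay above the filter. Over the lists together, 1 gene was called higher at 8 h, 3 at 24 h and 5 at 72 h, and 0 were called lower. Of all 7178 genes, 0.766% were called in either direction at 8 h, 4.07% at 24 h and 6.84% at 72 h, and those called higher were 0.711%, 2.45% and 3.86%. The 5 genes are too few to set the lists apart from these shares without a test, and none was run.

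In the Gs and cyclic AMP list, RAPGEF3 was the gene that rose, 1 of 17 at each time, and 0 passed as lower. RAPGEF3, also called EPAC1, is an exchange factor for Rap that cyclic AMP activates directly. It had 260, 236 and 97.2 in vehicle, 627, 488 and 454 at 8 h, 718, 739 and 694 at 24 h, and 691, 414 and 539 at 72 h. All treated arrays lay above the vehicle arrays, as for 6.51%, 9.32% and 11.7% of genes tested at 8, 24 and 72 h. RAPGEF3 had log2 changes of 1.43, 1.88 and 1.47 (limma adjusted p = 0.0128, 0.000449 and 0.00229). At 8 h it no longer passed without 8 h replicate 1 (adjusted p = 0.0974) or with no filter (0.0524). Its second probe set had smaller log2 changes of 0.38, 0.43 and 0.62 at 8, 24 and 72 h. Over the 17 genes the median log2 change was 0.04, -0.09 and 0.05 at 8, 24 and 72 h, and over all genes it was -0.004, -0.016 and -0.015.

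ADCY9, an adenylyl cyclase that makes cyclic AMP, lay under the filter and was picked out after its values were seen. Its vehicle signals lay above the filter's level, so that it fell under only through its arrays at 24 and 72 h. Its brightest probe set had 317, 323 and 254 in vehicle, 186, 202 and 232 at 8 h, 148, 97.2 and 60.7 at 24 h, and 83.0, 81.1 and 91.1 at 72 h. All treated arrays lay below all vehicle arrays, as for 6.95%, 11.2% and 12.7% of genes above the filter at 8, 24 and 72 h. In the fit with no filter its log2 change was -0.49, -1.47 and -1.63 (adjusted p = 0.968, 0.00788 and 0.00252). Its other probe sets were dimmer, and their treated arrays overlapped vehicle at each time.

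Among genes that process or clear peptides, PAM was the 1 of 7 that passed at 72 h, and 0 passed earlier. PAM makes the C-terminal amide that calcitonin gene-related peptide and adrenomedullin need for activity. Its signal was 1061 ± 207 at 72 h, against 705 ± 30.2 in vehicle (SD, n = 3), a log2 change of 0.56 (adjusted p = 0.0155). All 3 arrays at 72 h, between 891 and 1292, lay above the vehicle arrays, between 682 and 739. So placed at 72 h were 11.7% of genes tested. The call ended without 72 h replicate 2 or vehicle replicate 1 or 2 (highest adjusted p = 0.0651) and when its 3 probe sets were averaged (0.263). The other probe sets had log2 changes of 0.23 and 0.20. Over the 7 genes the median log2 change was 0.03, 0.11 and 0.28 at 8, 24 and 72 h.

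Of 12 genes of receptor desensitization and traffic, GRK5 and RAB11A passed at 72 h, and 0 did at 8 or 24 h. GRK5, a kinase that phosphorylates active G protein-coupled receptors, had 473 ± 39.9 at 72 h, against 246 ± 64.9 in vehicle, a log2 change of 0.93 (adjusted p = 0.011). Its call ended without vehicle replicate 2 (adjusted p = 0.057). The probe set tested had log2 changes of 0.24 and 0.41 at 8 and 24 h. The other GRK5 probe set, not used in that test, had 1.825, 2.85 and 3.47 at 8, 24 and 72 h, so the 2 differ in size and time. RAB11A, a regulator of recycling endosomes, had 0.30 (adjusted p = 0.045), and its call ended under 14 of 21 alternatives. Its other probe set had -0.22. The list's median was 0.02, 0.04 and 0.06 at 8, 24 and 72 h.

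Of the family's other genes, CRCP, which encodes a component of the receptor complex, and ADM2, a further peptide of the adrenomedullin type, lay above the filter, and 0 of the 2 passed. Their log2 changes at 72 h were 0.10 and 0.32 (adjusted p = 0.76 and 0.73). CALCR, the calcitonin receptor, had a mean signal of 104 at 72 h and 93.9 in vehicle, which lies under the filter, as did IAPP, the amylin gene.

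ADM belongs to the genes that hypoxia induces, and 2 of 12 other such genes passed at 24 h, NDRG1 (log2 change 0.64, adjusted p = 0.0398) and the angiogenic factor VEGFA (0.58, adjusted p = 0.00936). At 72 h VEGFA passed (0.67, adjusted p = 0.00225) and 0 passed as lower at any time. The other VEGFA probe sets had smaller changes, with 0.17, 0.40 and 0.22 at 24 h and 0.38, 0.54 and 0.38 at 72 h. NDRG1 had 0.65 at 8 h, much as at 24 h, and 0.41 at 72 h, and did not pass there (limma adjusted p = 0.117 and 0.177). The NDRG1 call ended under 8 of 21 alternatives and that of VEGFA at 24 h under 3. The list's median was 0.02, 0.08 and 0.20 at 8, 24 and 72 h. BNIP3 and EGLN3, which were singled out after their values were seen, did not pass. BNIP3 had a log2 change of 1.05 at 72 h (adjusted p = 0.065), and EGLN3 had -1.005 at 24 h (adjusted p = 0.0537) and -0.79 at 72 h (adjusted p = 0.106).

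**Figure D5:**
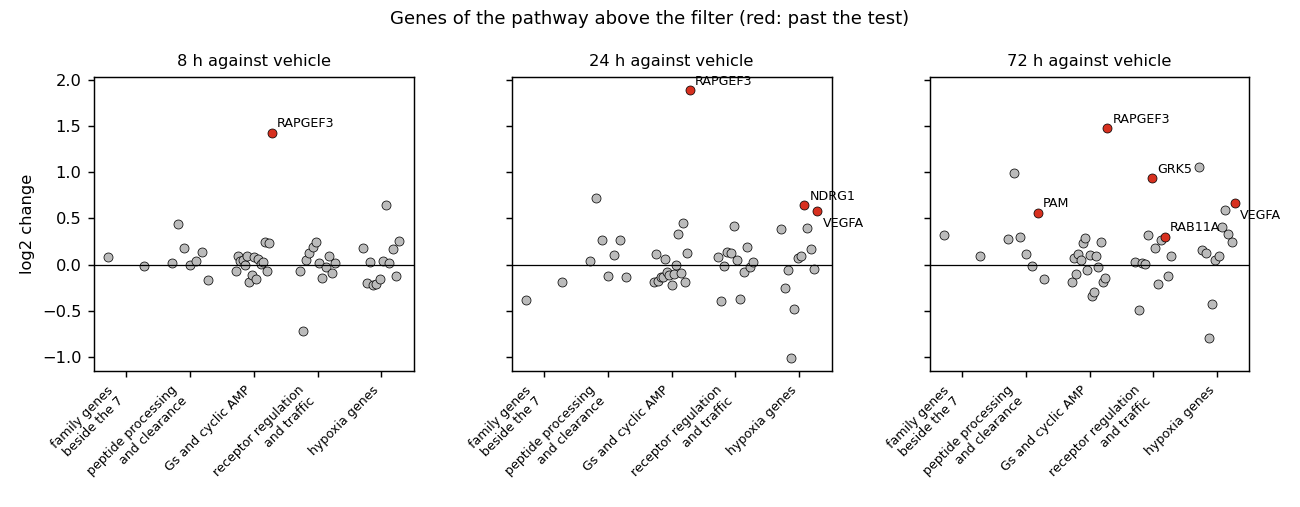
The log2 change of the 50 genes of the 5 lists above the filter, by time against vehicle. Each point is 1 gene, and red points passed the limma test at an adjusted p of 0.05. RAPGEF3 stands highest at each time, with 1.43, 1.88 and 1.47.

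Genes with a course most like that of CALCB were ranked by the root mean square difference over the 12 arrays, after each gene's vehicle mean was taken off its log2 values. The nearest 5 of 7177 genes were GADD45A, a growth arrest gene of the family used to check the cells (0.31), the secreted protease KLK6 (0.31), the transcription factor GATA6 (0.37), KCTD12 (0.40) and the stress kinase phosphatase DUSP10 (0.41), against a median of 1.82 over all genes. ADM stood at 1.12 and RAMP3 at 1.91 from CALCB. The nearest to ADM were CITED2, a transcription co-regulator (0.17), the transporter SLC6A12 (0.22), the antisense transcript WT1-AS (0.22), DNAJB2 (0.24) and the protease KLK7 (0.24), against a median of 0.77. From ADM, CALCB stood at 1.12 and RAMP3 at 0.84, both farther than that median. These distances are descriptions over arrays that share the vehicle mean. With group means in place of arrays, 3 of the 5 were shared for CALCB and 2 of the 5 for ADM.

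The neighbours of CALCB on chromosome 11 that could be tested, PDE3B and C11orf58, each lie 3 genes away. In the RefSeq gene order on GRCh38.p14, CALCA lies on one side, followed by CYP2R1, which encodes a vitamin D 25-hydroxylase, and PDE3B, a cyclic nucleotide phosphodiesterase. INSC, SOX6 and C11orf58 follow on the other side. CALCA, described above, and CYP2R1 lay under the filter and INSC and SOX6 were not analysed here. PDE3B did not pass (log2 change -0.12, -0.11 and -0.06; limma adjusted p = 0.999, 0.93 and 0.95 at 8, 24 and 72 h), and neither did C11orf58 (-0.06, -0.08 and -0.08). Next to ADM, AMPD3 on one side had -0.15, -0.06 and -0.12 and did not pass.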

How the data were processed

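The authors deposited a linear intensity for each probe set. MAS5, without a version, is named in the submitters' processing notes. The 2% trimmed mean was 500.2 on every array, and no further scaling was applied. Detection calls played no part. The number of arrays limits the precision.

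In R 4.3.3 with limma 3.58.1 and data.table (version 1.17.8), values were transformed as log2(value + 15.833), and with 13.874 added for U95. Each of 11963 genes was read from its brightest probe set on average, and 7178 genes remained above the 40th percentile. Group means were fitted to the 12 U133A arrays (lmFit and eBayes with trend, 8 residual degrees of freedom), with Benjamini-Hochberg adjustment over all genes. Members below the filter were described from a fit to all single-gene probe sets.

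Members, lists and tests were chosen with earlier results of these data known. Genes of a list were named where they passed at any time, and otherwise the 2 with the lowest p at 72 h. Marker lists, the nearest genes and CYP24A1 were added by rule, and the TATA box, the GCGTG form of the hypoxia core and the chromosomal neighbours after the values were seen. Same-number arrays' deviations from group means correlated over 0.1 in all 3 pairs for 24 against 8 h and 72 against 24 h, and in 1 or 2 pairs elsewhere (range 0.052 to 0.26). No label states such a pairing. A fit with the number as a block changed no call of a member. Figures were drawn with Python 3.11.15 and matplotlib 3.10.9.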

Additional observations from a re-analysis of the deposited data

Results flagged for a closer look

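CALCB differed between 72 h and 8 h of hormone, with a log2 difference of 1.00 (SE 0.20, n = 3 arrays each) and all 3 arrays at 72 h above all 3 at 8 h. It stands here as a fitted difference between times past the threshold. That is no independent test, since the levels at both times were known when the gene was chosen, so no p is given. CALCB also passed the filter only through its treated arrays, so nothing is read from the threshold. Of all genes tested, 8.72% had all 3 arrays above all 3, and 2.52% were called in either direction for 72 against 8 h. The difference no longer passed without 8 h replicate 2, 72 h replicate 1 or 72 h replicate 3 (log2 differences 0.87, 0.97 and 0.90).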

How the results depend on the processing

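CALCB stayed higher than vehicle under all alternatives run, 20 at 8 h and 21 each at 24 and 72 h, and so did ADM under 21 at each time. With 4 times the pseudocount the CALCB log2 changes were 1.20, 1.66 and 2.10. Leaving out 1 array in turn gave CALCB values of 1.44 to 1.65, 1.87 to 2.28 and 2.41 to 2.65 at 8, 24 and 72 h, and ADM values of 0.29 to 0.66, 0.81 to 1.01 and 0.88 to 1.05. With only the 6 arrays of 8 h and vehicle, CALCB was under the filter and had no value.

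Several differences changed sign. Leaving out 1 array gave ADM -0.022 to 0.18 for 72 against 24 h, and RAMP3 -0.19 to 0.10 at 24 h and -0.26 to 0.21 at 72 h against vehicle, -0.19 to 0.28 for 72 against 24 h (-0.0011 with median centring) and -0.058 to 0.41 for 72 against 8 h. RAMP3 passed under none of them. Among genes under the filter, RAMP1 ranged from -0.62 to 0.64 at 72 h against vehicle, -1.16 to 0.10 for 72 against 24 h and -1.10 to 0.16 for 72 against 8 h, and CALCRL from -0.025 to 0.78 at 8 h against vehicle and -0.74 to 0.14 for 72 against 8 h. CALCRL also ranged from -0.85 to 0.14 at 24 h and -0.45 to 0.60 at 72 h against vehicle. For 72 against 24 h CALCRL ranged from -0.11 to 0.89. Some differences of CALCA, RAMP1 and RAMP2 changed sign as well.

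The number of genes called lower at 8 h was 4, and 7 with 4 times the pseudocount, 7 when probe sets were averaged within genes, 15 with a replicate block and 16 with the 6 arrays alone. At 24 h it was 116, and 72 with median centring and 188 with a replicate block. Leaving out 1 array gave 64 to 129 at 24 h and 117 to 233 at 72 h, where the vehicle replicates gave the lowest numbers (64, 74 and 67 at 24 h, 117, 141 and 128 at 72 h, without replicates 1, 2 and 3).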
